A study of Homo sapiens with 2 samples.

Results

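PTPRF, PTPRA, PTPRE, PTPRG, PTPRJ, PTPRK, PTPRM and PTPRS encode receptor-type protein tyrosine phosphatases, and these 8 of the 39720 gene symbols in the deposited table were chosen by name, around PTPRF as a reported partner of DEPDC1B. All 8 were found, and all 8 had at least 30 counts in one library or the other. RNA was sequenced from A549 cells, a human lung adenocarcinoma line, infected with lentivirus for a short hairpin against DEPDC1B (shDEPDC1B) or for a control hairpin (shNC), both with polybrene at 5 µg/mL, and collected on day 2. There was 1 library per group, with 18862371 counts in shDEPDC1B and 18647290 in shNC, so nothing below could be checked against replicates and no p-value was possible. Square brackets hold exact 95% intervals, which cover counting error alone.

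Receptor tyrosine phosphatases cross the membrane once, carry adhesion-like domains outside the cell, and remove phosphate from tyrosines inside it. Many have a pair of catalytic domains, of which the one next to the membrane does most of the catalysis, and several sit at cell contacts, where they act on cadherin complexes, SRC family kinases and growth factor receptors. PTPRF (also called LAR) has been reported to bind both DEPDC1B and the GTPase RHOA, with DEPDC1B competing for the site when cells detach from their surroundings before mitosis. The series asks what DEPDC1B does in lung adenocarcinoma, and the comparison here asks how the RNA of these receptors stood when it was knocked down.

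The catalytic loop is what makes these genes a family, so its codons are shown first. It was searched in the reading frame of each gene's longest protein-coding transcript (GENCODE 29, GRCh38) as histidine and cysteine, any 2 residues, glycine, any 2 residues, arginine and any 2 residues, which is 30 bases. The first such loop of each gene is given 5′ to 3′, with the codon of the catalytic cysteine in capitals.
PTPRF: cacTGCagcgcgggcgtgggccgcaccggc
PTPRS: cacTGCagtgccggtgtgggccgcacaggc
PTPRA: cacTGCagtgcaggtgtagggcgtacaggt
PTPRE: cacTGTagcgcgggcgtgggccggacgggc
PTPRM: cacTGCagtgctggtgcagggaggactggc
PTPRK: catTGCagtgctggtgctggacgaactggc
PTPRJ: catTGCagtgctggggtcggaaggacgggc
PTPRG: cacTGCagtgctggtgtgggcagaacaggc

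These first loops lie in coding exons at chr1:43619195-43619309 in PTPRF (plus strand, exons 27 and 28), chr19:5212229-5212344 in PTPRS (minus strand, exons 30 and 31), chr20:3022213-3022710 in PTPRA (plus strand, exons 14 and 15), chr10:128068279-128069713 in PTPRE (plus strand, exons 12 and 13), chr18:8376193-8376483 in PTPRM (plus strand, exons 23 and 24), chr6:127983356-127985728 in PTPRK (minus strand, exons 22 and 23), chr11:48163611-48164401 in PTPRJ (plus strand, exons 23 and 24) and chr3:62271548-62272967 in PTPRG (plus strand, exons 21 and 22). Each span includes an intron. Of the 30 bases, PTPRE shared 27 with PTPRF and PTPRS shared 26, while PTPRA shared 22 and PTPRJ, PTPRK and PTPRM shared 21 each. The loop was split by an intron after its base 8 in all 29 copies found in the 20 receptor-type genes, so a read across it has to be spliced.

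A second loop was found in 6 of the 8 genes, and none in PTPRG and PTPRJ, of which PTPRJ is known to have a single catalytic domain. In the second domains of PTPRM and PTPRK, given next, only the cysteine codon and part of the rest match, with 18 and 17 of the 30 bases as in the first loop of PTPRF. They lie at chr18:8387228-8394497 (plus strand, exons 29 and 30) and chr6:127973136-127973671 (minus strand, exons 28 and 29).
PTPRM: cacTGCttgaacgggggaggccgcagtggg
PTPRK: cacTGCctaaatggtggcgggcgaagtggc

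The likeness of the family bears on the counting, since reads from near copies are divided between genes by a model. The longest run of identical coding bases between PTPRF and PTPRS was 43 bases, and is shown because no other pair compared had one over 26 bases. It lies at chr1:43613699-43617470 (plus strand) in PTPRF and chr19:5215387-5215514 (minus strand) in PTPRS, across a splice junction in each.
PTPRF and PTPRS: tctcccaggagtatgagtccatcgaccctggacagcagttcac

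No word of 50 bases in the transcripts of 7 of the genes was found in a transcript of any other gene, and in PTPRJ 8 of 7802 such words were (0.103%). At exon level PTPRA overlaps VPS16 on the same strand over 558 bases of annotated exons, and PTPRG overlaps PTPRG-AS1 on the opposite strand over 1207 bases. VPS16 had 1038 counts in shDEPDC1B and 818 in shNC, a log2 ratio of 0.42 [0.29, 0.56], and PTPRG-AS1 had 19 and 20 counts. Their part in the PTPRA and PTPRG values was not tested. The deposited PTPRK value in shDEPDC1B, 299.425, was not a whole number of hundredths, unlike those of the other 7 genes, and the sources used here do not say why.

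The targeted gene was checked first. DEPDC1B, at chr5:60596912-60700190 on the minus strand, had 39 counts in shDEPDC1B and 329 in shNC, which leaves 12.5% [8.75, 17.5] of the shNC level, a direction that fits the labels. The epithelial markers KRT8 and KRT18 were abundant, with 103507 and 97608 counts in shDEPDC1B and 106007 and 99179 in shNC, and EPCAM was low, with 65 and 37 counts. Of the 5 leukocyte and 5 endothelial markers only CD14 reached 30 counts, and CD3E and LCP2 were among those at 0 in both libraries.

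PTPRF was the most abundant receptor phosphatase RNA of both libraries and differed little between them, while PTPRS, PTPRJ and PTPRG fell in shDEPDC1B. PTPRS was 2.72-fold lower, PTPRJ 2.13-fold lower and PTPRG 1.71-fold lower. With transcript length taken into account, as given further on, PTPRG no longer passed the 1.5-fold threshold, and PTPRJ passed it under one fit and not under another. None of the 8 rose by 1.5-fold, and PTPRA, with a ratio of 1.49, came nearest. To count as higher or lower, a gene needed a 1.5-fold ratio after scaling by trimmed means (TMM) and an interval clear of equality. By that rule 3 of 8 were lower, where 19.6% of all 13850 genes assessed at 30 counts or more were lower, and 0 of 8 were higher, where 19.2% of all were higher. The median log2 ratio of the 8 was -0.44, against 0.04 over all assessed genes.

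Levels of different genes are compared per kilobase of transcript, as CPM, the count in proportion to the scaled library size, divided by the length of the longest coding transcript. On this scale PTPRF, a receptor of the LAR subfamily with immunoglobulin and fibronectin type III domains, stood at 57.8 in shDEPDC1B and 62.1 in shNC. The order below it in shDEPDC1B was PTPRA at 32.7, PTPRM at 27.7, PTPRJ at 22.4, PTPRS at 9.28, PTPRG at 4.04, PTPRK at 2.69 and PTPRE at 0.391 CPM per kilobase. In shNC it was PTPRJ at 47.7, PTPRM at 34.2, PTPRS at 25.2, PTPRA at 22.0, PTPRG at 6.89, PTPRK at 4.04 and PTPRE at 0.457 CPM per kilobase. The counting intervals of neighbours in these orders did not overlap, but which transcript of each gene was made is not known, and another length would move its place. PTPRA was thus the second of the 8 in shDEPDC1B and the fifth in shNC.

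**Figure D1:**
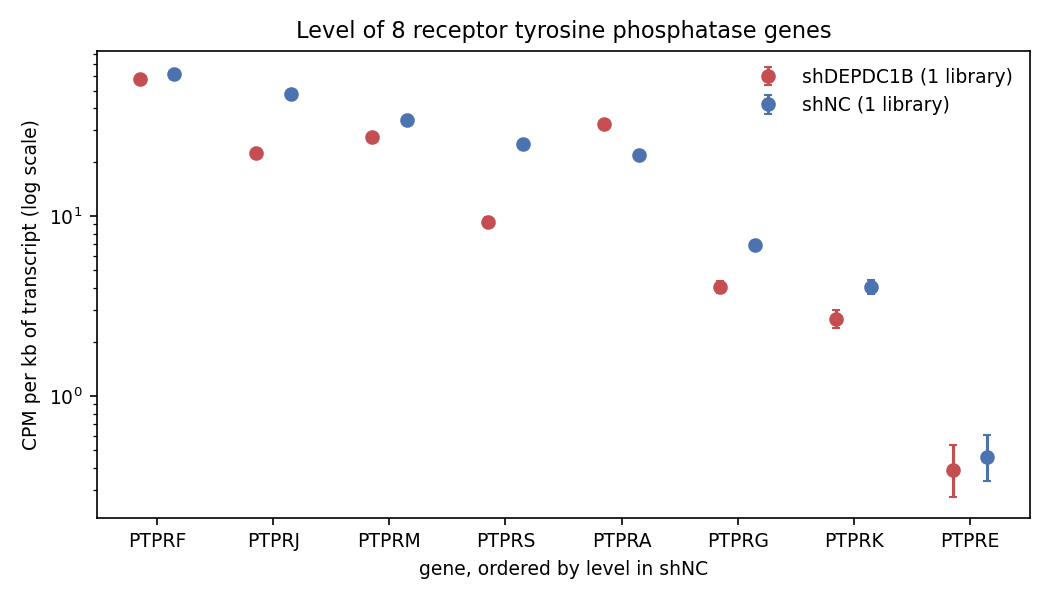
Level of each gene in CPM per kilobase of transcript on a log scale, in the shDEPDC1B library (red, left) and the shNC library (blue, right) with exact 95% Poisson intervals. PTPRF is the highest in both, at 57.8 and 62.1, and the ratio between libraries farthest from equality is that of PTPRS, at 9.28 and 25.2.

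PTPRF (ENSG00000142949, chr1:43525187-43623666, plus strand) had 8141 counts, or 446 CPM, in shDEPDC1B and 9253 counts, or 480 CPM, in shNC. Its log2 ratio was -0.10 [-0.15, -0.06], so that 93.0% of the shNC level was present, a difference beyond counting error but far under 1.5-fold. The sign was negative under each of 4 other scalings and positive once transcript length was taken into account, as given further on. With only 2 libraries a pattern over samples is a pair of levels, and among the genes closest to PTPRF by distance in log2 CPM were DUSP1, a phosphatase of MAP kinases, at 0.02 and the translation factor gene EIF3C at 0.07.

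PTPRS (ENSG00000105426, chr19:5158495-5340803, minus strand), the closest relative of PTPRF among the 8 and a receptor for heparan and chondroitin sulphate proteoglycans, had 1076 counts (59.0 CPM) in shDEPDC1B and 3089 counts (160 CPM) in shNC. The log2 ratio was -1.44 [-1.54, -1.34], the lowest of the 8, at percentile 3.52 of all assessed genes. Set against PTPRF directly, which needs no scaling of the libraries, the log2 ratio of PTPRS was lower by 1.34, with an interval for the difference of [-1.45, -1.23]. The third gene of this subfamily, PTPRD, had 79 counts in shDEPDC1B and 143 in shNC and a log2 ratio of -0.78 [-1.19, -0.37].

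The PTPRS promoter is printed because this gene had the lowest ratio. The window runs from 250 bases before to 50 after the start (RefSeq, GRCh38.p14, chr19:5340763-5341062, minus strand), and capitals mark the E-box CACGTG, the cAMP response element TGACGTCA and the GC box GGGCGG on either strand.
PTPRS: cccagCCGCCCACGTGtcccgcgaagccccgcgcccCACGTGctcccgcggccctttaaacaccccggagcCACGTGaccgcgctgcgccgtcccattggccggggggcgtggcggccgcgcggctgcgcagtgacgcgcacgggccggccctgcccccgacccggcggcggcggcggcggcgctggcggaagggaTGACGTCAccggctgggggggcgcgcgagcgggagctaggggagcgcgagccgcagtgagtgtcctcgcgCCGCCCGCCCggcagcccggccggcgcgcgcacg

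It held 3 E-boxes, the first sharing a base with a GC box, where 7.26% of the 35116 promoters in the table held at least 1 and 0.094% at least 3. It also held 1 cAMP response element, where 1.85% of promoters held at least 1, and 3 GC boxes, where 15.8% held at least 3. The motifs were chosen after the sequence had been seen, and each contains a CpG. The PTPRS window held 55 CpG and was 81.33% G and C, against a median of 14 CpG over all promoters in the table, and its part in these matches was not tested. No E-box and no cAMP response element was found in the promoter windows of the other 6 genes that had an entry, namely PTPRF, PTPRA, PTPRE, PTPRG, PTPRK and PTPRM. GC boxes were not particular to PTPRS. A window of PTPRE and a window of PTPRM held 3 each, and PTPRK and a window of PTPRA held 1 each. Nor was a high number of CpG. It was 50 in a window of PTPRM, 44 in PTPRK, 38 in a window of PTPRA, 37 in PTPRF, 35 in a window of PTPRE and 34 in PTPRG. Further windows of PTPRM, PTPRA and PTPRE held from 2 to 12. A match is a run of letters, and whether any factor was bound was not measured.

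PTPRJ (ENSG00000149177, chr11:47980558-48170841, plus strand), also called DEP-1 or CD148, is a receptor with fibronectin type III repeats that dephosphorylates growth factor receptors. It had 3210 counts (176 CPM) in shDEPDC1B and 7218 counts (374 CPM) in shNC, and the log2 ratio was -1.09 [-1.15, -1.03]. In shNC it was the second most abundant of the 8 per kilobase and in shDEPDC1B the fourth. EGFR, a substrate, had 1714 counts in shDEPDC1B and 6563 in shNC, a log2 ratio of -1.86 [-1.93, -1.78], and MET, another, had 5158 and 8578, a log2 ratio of -0.65 [-0.70, -0.60].

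PTPRG (ENSG00000144724, chr3:61561569-62297613, plus strand), whose outer part resembles carbonic anhydrase and binds contactins, had 665 counts (36.5 CPM) in shDEPDC1B and 1199 counts (62.2 CPM) in shNC, a log2 ratio of -0.77 [-0.91, -0.63]. That call ended with length taken into account, at -0.21 after a linear fit on length and GC content and -0.19 after a loess on length. Against PTPRG, PTPRJ was lower by a further 0.32 on the log2 scale, with an interval of [-0.47, -0.17]. PTPRZ1, the other receptor with a carbonic anhydrase-like domain, had no counts in either library.

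PTPRM and PTPRK carry MAM domains and bind their own kind on neighbouring cells, and neither passed the threshold. PTPRM (ENSG00000173482, chr18:7566782-8406861, plus strand) had 3085 counts (169 CPM) in shDEPDC1B and 4015 counts (208 CPM) in shNC, a log2 ratio of -0.30 [-0.37, -0.23]. PTPRK (ENSG00000152894, chr6:127968779-128520674, minus strand) had 299 counts (16.4 CPM) in shDEPDC1B and 474 counts (24.6 CPM) in shNC, a log2 ratio of -0.58 [-0.80, -0.37] that lay on the edge of the 1.5-fold threshold and passed it under each of 4 other scalings. The log2 ratio of PTPRM was higher than that of PTPRK by 0.28 [0.06, 0.51]. Of the same subfamily PTPRU had 819 counts in shDEPDC1B and 798 in shNC, and PTPRT had none.

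PTPRA and PTPRE have short outer parts and activate SRC family kinases by removing an inhibitory phosphate from their tails. PTPRA (ENSG00000132670, chr20:2864184-3039076, plus strand) had 2221 counts (122 CPM) in shDEPDC1B and 1577 counts (81.8 CPM) in shNC, and its log2 ratio of 0.57 [0.48, 0.67] was the only positive one of the 8. PTPRE (ENSG00000132334, chr10:127907061-128085855, plus strand) had 38 counts in shDEPDC1B and 47 in shNC, too few to tell a difference, with a log2 ratio of -0.23 [-0.88, 0.42]. The log2 ratio of PTPRA was higher than that of PTPRE by 0.80 [0.14, 1.46]. SRC itself had 6086 counts in shDEPDC1B and 5178 in shNC, a log2 ratio of 0.31 [0.26, 0.37], and its relative YES1 had 799 and 1849, a log2 ratio of -1.13 [-1.25, -1.01].

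**Figure D2:**
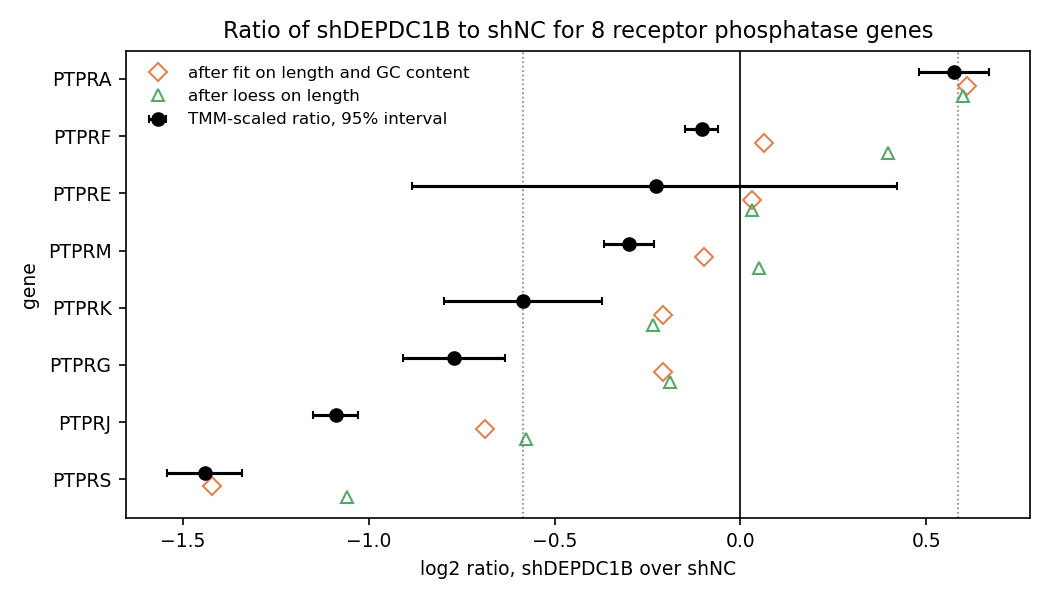
Log2 ratio of shDEPDC1B over shNC for each of the 8 genes (black, exact 95% interval), after a linear fit on transcript length and GC content (orange) and after a loess on length (green). Dotted lines mark 1.5-fold. PTPRS is lowest at -1.44 and PTPRA highest at 0.57, and PTPRF passes from -0.10 to positive values after either fit.

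Transcript length moved with these ratios over the whole table, and the receptors are long. The transcripts of the 8 ran from 3725 nucleotides in PTPRA to 9021 in PTPRG, with a median of 6224, against 3403 over assessed genes. Among the 5775 assessed genes with transcripts of 3725 nucleotides or more, 32.5% were lower by the rule and 6.93% higher. When protein-coding genes were ranked by length and cut into 10 bins of like size, the log2 ratio of PTPRS minus the median of its own bin was -1.03, that of PTPRJ -0.46 and that of PTPRG -0.14. PTPRF was above the median of its bin by 0.52 and PTPRA by 0.61, and in all 4 of the 8 were above and 4 below. In the bin of PTPRF, PTPRJ and PTPRG 52.3% of genes were lower by the rule and 4.15% higher. In that of PTPRS, PTPRK and PTPRM 38.7% were lower, in that of PTPRE 28.2% and in that of PTPRA 17.2%. How far length accounts for any of these values was not tested.

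After a linear fit on length and GC content across assessed genes, PTPRS was at -1.42 and PTPRJ at -0.69 on the log2 scale, both still lower by the rule. After the loess on length PTPRS was at -1.06, and PTPRJ, at -0.58, fell short of 1.5-fold. By the linear fit PTPRG was at -0.21, PTPRK at -0.21, PTPRM at -0.10, PTPRE at 0.03, PTPRF at 0.06 and PTPRA at 0.61. PTPRA was then counted as higher, and PTPRG no longer as lower.

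**Figure D3:**
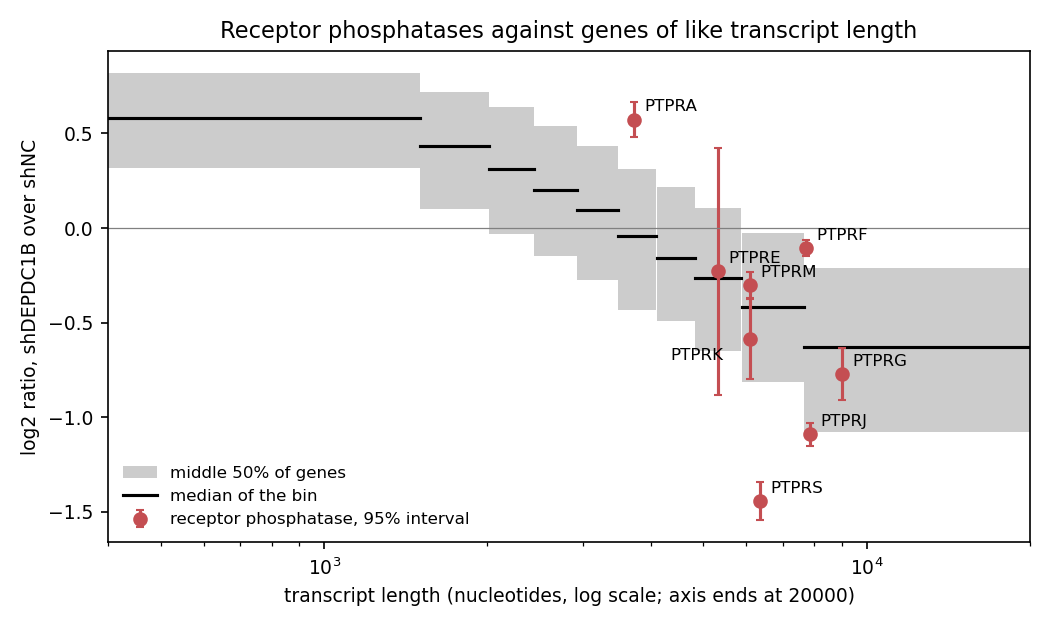
Log2 ratio of shDEPDC1B over shNC against transcript length (log scale) for the 8 genes (red, exact 95% interval), with the median (black) and middle 50% (grey) of each of 10 bins of assessed protein-coding genes by length. PTPRS lies under the grey band and PTPRA and PTPRF over it. PTPRJ, at -1.09, lies at the lower edge of its band, which is -1.075.

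As a pool, the RNA of the 20 receptor-type genes summed to 172.5 CPM per kilobase in shDEPDC1B and 214 in shNC, or 80.6% of the shNC level. PTPRF made up 33.5% of the pool in shDEPDC1B and 29.01% in shNC. PTPRA made up 18.9% in shDEPDC1B and 10.3% in shNC, and PTPRM 16.1% and 16.0%. PTPRJ made up 13.0% in shDEPDC1B and 22.3% in shNC, and PTPRS 5.38% and 11.8%. The 12 other receptor-type genes together were a small part, since the 8 held 91.0% in shDEPDC1B and 94.6% in shNC. The pool and its shares were not corrected for the trend over transcript length. Assessed genes of 3725 nucleotides or more had a median log2 ratio of -0.31, a fall like that of the pool. The part of length in the pool was not tested.

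**Figure D4:**
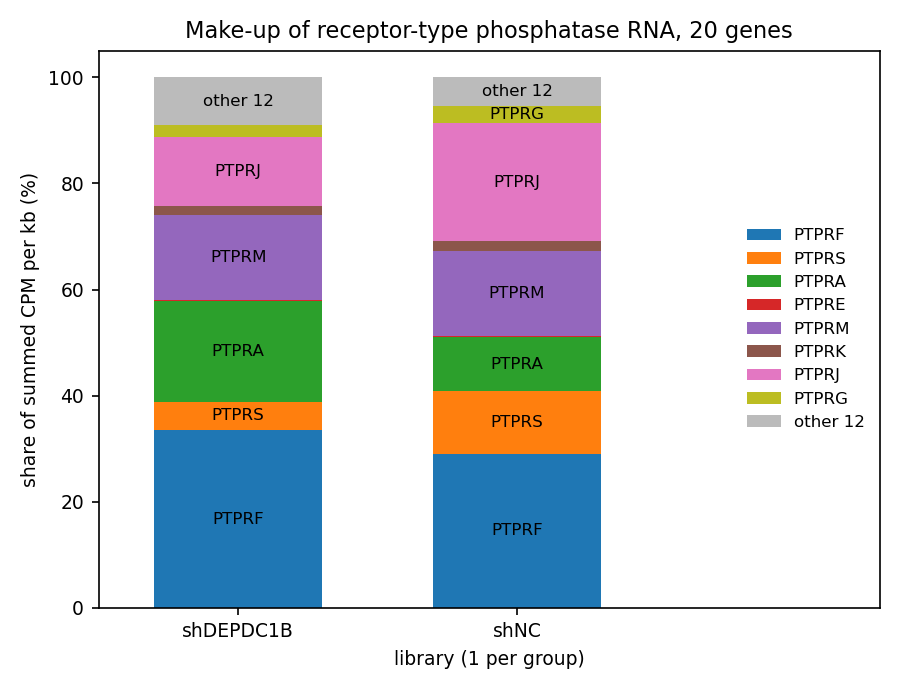
Share of the summed CPM per kilobase of 20 receptor-type phosphatase genes in the shDEPDC1B library (left) and the shNC library (right). PTPRJ and PTPRS fill less of the shDEPDC1B bar (13.0% and 5.38%) than of the shNC bar (22.3% and 11.8%), and PTPRA more (18.9% against 10.3%). The shares are not corrected for the trend over transcript length.

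Among the 12 other receptor-type genes 5 were assessed, of which 2 were higher and 1 lower by the rule, where 19.2% of all assessed genes were higher and 19.6% lower. Their median log2 ratio was 0.12, and 0.105 after the fit on length and GC content. PTPRN2, a phosphatase-like protein of secretory granules without catalytic activity on tyrosine, had 375 counts in shDEPDC1B and 158 in shNC, a log2 ratio of 1.33 [1.05, 1.60]. PTPRH, which like PTPRJ has fibronectin type III repeats, had 163 and 87 counts, a log2 ratio of 0.99 [0.60, 1.38]. PTPRD was the lower gene. Of the neuroendocrine markers set beside PTPRN2, SYP had 114 counts in shDEPDC1B and 65 in shNC, SYT1 1056 and 1145, CHGA 11 and 8, PTPRN 1 and 1, and NEUROD1 none. The list summed to 64.8 CPM in shDEPDC1B and 63.2 in shNC, and its part in the PTPRN2 value was not tested.

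Of 17 classical non-receptor tyrosine phosphatases, which work on the same phosphotyrosines from inside the cell, 14 were assessed, and 4 were lower and 1 higher, where 19.6% of all assessed genes were lower and 19.2% higher. The median log2 ratio was -0.30, and it turned to 0.05 after the fit on length and GC content. PTPN13, a large cytoplasmic phosphatase with PDZ domains, was at -1.27 [-1.39, -1.15], PTPN11 (SHP2), which promotes RAS signalling, at -0.88 [-0.94, -0.83] and PTPN9 at -0.64 [-0.75, -0.53]. PTPN6 (SHP1), best known from blood cells, had 776 counts in shDEPDC1B and 395 in shNC, a log2 ratio of 1.05 [0.88, 1.23]. The leukocyte markers summed to 9.70 CPM in shDEPDC1B and 5.55 in shNC, nearly all of it CD14. CD14 had 175 and 107 counts and was higher by the rule, as PTPN6 was, with a log2 ratio of 0.79 [0.43, 1.15]. After the fit on length and GC content CD14, at 0.39, no longer passed, while PTPN6 did, at 0.73. After the loess on length they were at 0.41 and 0.80. PTPRC, which encodes CD45, had 2 counts in shDEPDC1B and 0 in shNC, and CD3E and LCP2 had none. The part of these markers in the PTPN6 value was not tested.

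The extracellular ligands of these receptors, which are proteoglycans, synaptic adhesion proteins, contactins and growth factors, numbered 31, of which 17 were assessed, 3 were lower and 1 was higher, a share of lower genes near the 19.6% of all assessed genes, of which 19.2% were higher. Their median log2 ratio was -0.15, and it turned to 0.14 after the fit on length and GC content. SLITRK6, a synaptic adhesion protein, had 17 counts in shDEPDC1B and 63 in shNC, a log2 ratio of -1.81 [-2.68, -1.02]. SLITRK5 was at -0.69 [-1.03, -0.36] and the syndecan SDC2, with 17 and 34 counts, at -0.92 [-1.85, -0.04]. SLITRK6 and SDC2 reached 30 counts in shNC alone, so the filter admitted them through the library where they were high. They could not have been counted as higher. LRRC4B, a synaptic ligand of PTPRF, had 137 and 85 counts and stood at 0.77 [0.37, 1.18].

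Inside the cell the partners of PTPRF and its relatives include the liprins, which cluster the receptors, and the exchange factor TRIO. Of 9 such genes 7 were assessed, and 4 were lower and 1 higher, where 19.6% of all assessed genes were lower and 19.2% higher, and 32.5% were lower among those of 3725 nucleotides or more. The median log2 ratio was -0.72. ERC1, a scaffold that binds liprins, was at -1.17 [-1.36, -0.98]. The liprin gene PPFIBP1 was at -0.95 [-1.05, -0.85] and TRIO at -0.72 [-0.78, -0.66], while PPFIA3, with 180 counts in shDEPDC1B and 109 in shNC, was at 0.80 [0.45, 1.16]. The assessed genes had a median transcript length of 6001 nucleotides, and after the fit on length and GC content their median was -0.26.

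Several of the receptors are cut by a furin-like convertase, then by ADAM metalloproteases and gamma-secretase. Of 12 such protease genes all were assessed, with 3 higher and 1 lower, a share of higher genes near the 19.2% of all assessed genes, of which 19.6% were lower. The median log2 ratio was 0.02, and 0.20 after the fit on length and GC content. The gamma-secretase subunit genes NCSTN and PSENEN were at 0.89 [0.80, 0.99] and 0.78 [0.67, 0.90], and the convertase PCSK7 at 0.75 [0.52, 0.98]. PCSK5, another convertase, was at -0.63 [-0.88, -0.38].

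Of 18 substrates 15 were assessed, 6 lower and 1 higher, where 19.6% of all assessed genes were lower and 19.2% higher. Among them the median log2 ratio was -0.51, and -0.17 after the fit on length and GC content. EGFR, YES1 and MET, given above, were the lower genes farthest from equality. JUP, the junction protein plakoglobin, was higher, with 5297 counts in shDEPDC1B and 3553 in shNC, a log2 ratio of 0.66 [0.59, 0.72].

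RHOA, which has been reported to compete with DEPDC1B for PTPRF, had 7657 counts in shDEPDC1B and 7906 in shNC, a log2 ratio of 0.03 [-0.01, 0.08]. ROCK1, a kinase that RHOA activates, fell to 1079 counts in shDEPDC1B, against 2600 in shNC, a log2 ratio of -1.19 [-1.29, -1.09], while its relative ROCK2 was at -0.17 [-0.24, -0.11]. The exchange factor ARHGEF2 was at -0.21 [-0.36, -0.06]. RAC1, a GTPase of protrusion, had 7510 and 4908 counts, a log2 ratio of 0.69 [0.64, 0.75]. With length taken into account the sign of ROCK2 and of RHOA changed. ROCK2 was at 0.41 after the fit on length and GC content and 0.37 after the loess on length. RHOA was at -0.13 and -0.31 and ARHGEF2 at -0.22 and -0.06, and ROCK1 and RAC1 are given below.

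The fit on length and GC content ended the call of several genes named from these lists. PTPRD, PTPN11, PTPN9, SLITRK5, LRRC4B, PPFIBP1, TRIO, PSENEN, PCSK5, MET, JUP and ROCK1 no longer passed, and SLITRK5, with a long transcript, turned to 0.40. SDC2, at -0.75, was still more than 1.5-fold lower, but the interval from its 17 and 34 counts then included equality. PTPN13 at -0.74, ERC1 at -0.72, EGFR at -1.35, YES1 at -0.75 and SLITRK6 at -1.44 were still lower, and PTPRN2 at 1.31, PTPRH at 0.90, PTPN6 at 0.73, PPFIA3 at 0.66, NCSTN at 0.83, PCSK7 at 0.72 and RAC1 at 0.65 still higher. Of the non-receptor phosphatases 1 was then lower and 2 were higher. For some genes the outcome differed after the loess on length. LRRC4B at 0.65, JUP at 0.64, PPFIBP1 at -0.61 and ROCK1, on the edge at -0.59, were past 1.5-fold again. SDC2, at -0.89, was again lower by the rule, with its interval barely clear of equality. ERC1 at -0.58 and RAC1 at 0.43 fell short of it.

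**Figure D5:**
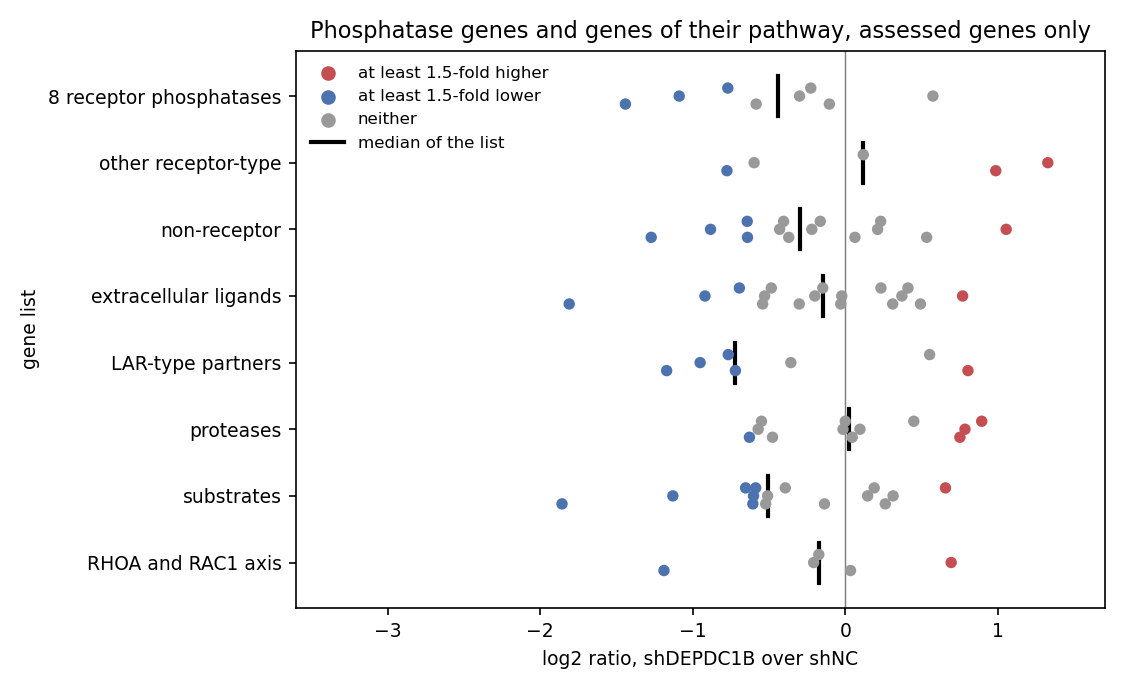
Log2 ratio of shDEPDC1B over shNC for the assessed genes of 8 lists, 1 point per gene, coloured red where at least 1.5-fold higher, blue where at least 1.5-fold lower and grey otherwise, with the median of each list as a bar. The medians run from -0.72 in the LAR-type partners to 0.12 in the other receptor-type genes.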

How the data were processed

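The authors deposited estimated counts for each gene symbol, not scaled for depth, made with Bowtie2 and RSEM on hg38 per the submitters' processing notes. Versions, annotation and strand: not given in the sources used here. Estimated counts were rounded to whole numbers and scaled with TMM factors (edgeR 4.0.16, R 4.3.3), 0.967 for shDEPDC1B and 1.03 for shNC. CPM are rounded counts over the scaled library size. A gene was assessed where either library had at least 30 counts. Ratios carry exact Clopper-Pearson 95% intervals, levels exact Poisson ones, and differences between genes conditional exact intervals of the odds ratio (SciPy 1.17.1). Reads have no molecular identifiers, so intervals cover counting error only. Coordinates and transcript lengths are from GENCODE 29, and 94.0% of assessed genes had a length. The 8 receptors, DEPDC1B and the 5 genes of the RHOA and RAC1 axis were named by rule, as were up to 3 higher and 3 lower genes of each list by the interval bound nearest to equality. SRC, VPS16, PTPRG-AS1, further markers and relatives below the threshold were named after their values were seen. The members and lists were chosen with earlier results of these data known. The ratios, their intervals and the rule were tested on simulated Poisson counts scaled by library totals, without a trend over length. The TMM scaling, the length fits, the differences between genes and the sequence steps were not tested in this way.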

Additional observations from a re-analysis of the deposited data

How the results depend on the processing

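Each value was recomputed under up to 13 alternatives. PTPRF was at -0.16 with DESeq2 1.42.0 size factors, -0.20 with library totals and -0.24 after a loess on mean expression, but at 0.064 after the fit on transcript length and GC content and 0.40 after a loess on length, so its sign rests on that choice. The median of the 8 was -0.58 at a minimum of 100 counts, which drops PTPRE, and with length taken into account it was -0.15 (linear fit with GC content) and -0.078 (loess). The number of the 8 counted as lower, 3, was 1 after the loess on length (PTPRS) and ran from 1 to 4 over all alternatives, with PTPRK as the fourth, and the number counted as higher was 1 (PTPRA) under each of these fits, the loess on length and the linear one. PTPRS ran from -1.54 to -1.06 and PTPRJ from -1.19 to -0.58, and the sign of PTPRM and of PTPRE also differed after a length fit. Among non-receptor genes 1 was lower at a 2-fold threshold, against 4 at 1.5-fold. DEPDC1B stayed between -3.22 and -2.91. Other scalings moved the median of all genes by at most -0.10. No paired analysis was possible because each group has 1 library. PTPRE, with 38 and 47 counts, is limited by depth.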

Other observations

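Receptor phosphatases known from other tissues gave few reads. PTPRB, the endothelial member, had 7 counts in shDEPDC1B and 24 in shNC, a log2 ratio of -1.70 [-3.16, -0.44]. Of the 4 other endothelial markers, PECAM1 had 6 counts in shDEPDC1B and 11 in shNC, CDH5 2 and 2, VWF 2 and 0, and TEK 0 and 1. The list, PTPRB included, summed to 0.932 CPM in shDEPDC1B and 1.97 in shNC, and its part in the PTPRB value was not tested. PTPRO, known from kidney podocytes, had 11 and 16 counts, and PTPRQ, known from the inner ear, had 25 and 40, a log2 ratio of -0.60 [-1.38, 0.16]. After the fit on length and GC content PTPRQ was at 0.03, and after the loess on length at -0.05. PTPRR had 1 count in each library.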
